A study of Mus musculus with 8 samples.

Results

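The genes described here are 40 genes of NRF2 signalling, glutathione synthesis and use, and antioxidant enzymes, taken by symbol from the 55487 genes of a normalized count table. Each of the 40 symbols matched 1 gene, and all 40 passed the filter for testing, an average over the 8 libraries of 10 or more normalized counts. A normalized count is the number of reads in a gene divided by 1 size factor per library. The libraries were made from poly(A) RNA of the ileum of Gsdme-/- mice given irinotecan (Gsdme_KO, 4 libraries: KO4, KO5, KO7 and KO8) and of Gsdme+/+ mice given irinotecan (WT, 4 libraries: WT3, WT5, WT7 and WT8). Both groups had thus received irinotecan, a topoisomerase I inhibitor used against tumours that injures the gut, and no untreated mice were analysed here. The labels give no strain, age, sex, dose or time, and do not say how the Gsdme allele was made or whether the groups were littermates. Gsdme encodes gasdermin E, a protein that forms pores in membranes after cleavage by caspases. The series asked how the ileal transcriptome differs between the 2 genotypes.

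NRF2, encoded by Nfe2l2, is a transcription factor that KEAP1 holds in the cytosol and marks for degradation. When oxidants or electrophiles modify cysteines of KEAP1, NRF2 reaches the nucleus, pairs with small MAF proteins and binds antioxidant response elements near its target genes. Glutathione is made from glutamate, cysteine and glycine, serves peroxidases and transferases as the reducing or conjugating partner, and is returned to its reduced form with NADPH. In the gut these enzymes meet oxidants and electrophiles from food, bacteria and inflammation, and the epithelium carries its own glutathione peroxidase, GPX2.

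Read depth ran from 15617407 to 23437343 reads in genes in Gsdme_KO libraries and from 16109031 to 20597350 in WT libraries. Gsdme itself averaged 349 ± 242 normalized counts in Gsdme_KO and 2851 ± 536 in WT (SD, n = 4 each), with every Gsdme_KO library below every WT library (p = 0.0286 by a two-sided exact permutation test, the lowest value possible with 4 libraries against 4). In the limma test across all genes that is used below, Gsdme was nevertheless not called (log2 fold change -3.32, limma adjusted p = 0.786). That fold change was the lowest of all 16352 tested genes, so a gene not called there can still differ widely. The epithelial and ileal markers Epcam, Cdh1, Vil1, Krt8, Krt20, Fabp6 and Slc10a2 were present in every library, with a summed level of 241985 to 331687 normalized counts in Gsdme_KO and 249534 to 353447 in WT. The libraries KO4 and KO5 differed widely from the rest. On the first principal component of all tested genes, which held 49.1% of the variance, KO4 scored 91.5 and KO5 46.5, KO7 scored -35.3 and KO8 -19.8, and the WT libraries lay between -33.6 and -1.37. The 24 markers of mature enterocytes summed to 217304 normalized counts (KO4), 321757 (KO5), 761723 (KO7) and 567032 (KO8) in Gsdme_KO, against 440377 to 765827 in WT. Mean log2 values were lower in Gsdme_KO for 22 of these 24 genes, and 1 of them, Lct, was at 0 in KO4. The 12 markers of B cells and follicles summed to 11738 (KO4), 6721 (KO5), 344 (KO7) and 279 (KO8) in Gsdme_KO, against 258 to 387 in WT, with Blk at 0 in KO7 and Cr2 at 0 in WT7. Fold changes of the genes given library by library are therefore shown with and without these 2 libraries, and in tissue RNA of this kind fewer cells of a type and less RNA per cell cannot be told apart.

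None of the 40 genes passed the test between genotypes. By limma on log2(normalized count + 1), at a Benjamini-Hochberg adjusted p under 0.05 over 16352 tested genes, 0 of the 40 were higher and 0 were lower in Gsdme_KO, where 0.00612% of all tested genes were higher and 0% were lower. Their limma adjusted p ran from 0.849 to 0.999. At an unadjusted p under 0.05 the count was also 0 of 40, where 4.38% of all tested genes passed. On recovered reads, edgeR called 0 of the 40 in either direction (0.00612% of all genes higher, 0% lower) and DESeq2 called 0 (0.0489% higher, 0.00612% lower). At an unadjusted p under 0.05, edgeR listed 1 of the 40, Slc7a11 (background 6.01%), and DESeq2 listed 2, Slc7a11 and Hmox1 (background 6.94%). In none of the 40 did the 4 Gsdme_KO libraries lie all above or all below the 4 WT libraries, which 1.31% of tested genes did above and 1.19% below. Mean log2 values were higher in Gsdme_KO for 20 genes and lower for 20. The median log2 fold change was -0.014 over the 40 genes and 0.0026 over all tested genes, and the median size of the log2 fold change was 0.15 for the 40 genes and 0.14 for all tested genes. A result short of the threshold does not show equal levels. The 95% interval of the log2 fold change lay within 2-fold in either direction for 33 of the 40, and within 1.5-fold for 24. It reached past 2-fold for Slc7a11, Ggt1, Gsta3, Gstm3, Gstm6, Cat and Hmox1.

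Abundance differed widely among the 40 genes. Together they took 0.853% to 0.976% of all normalized counts in Gsdme_KO libraries and 0.789% to 0.974% in WT libraries. Levels of different genes are compared here as normalized counts per kilobase of exon, averaged over the 8 libraries. Exon length is the union of all annotated exons of a gene. By this measure Txn1, which encodes the disulfide reductase thioredoxin 1, was highest of the 40 at 13951 per kilobase, rank 50 among tested genes. Next came the glutathione peroxidase gene Gpx2 at 8513 per kilobase (rank 84), the peroxiredoxin gene Prdx1 at 5975 (rank 143), the omega-class transferase gene Gsto1 at 4969 (rank 172) and Gpx1 at 3861 (rank 225). At the other end were the alpha-class gene Gsta2 at 49.1 per kilobase and the cystine transporter gene Slc7a11 at 8.12, rank 14600 of the 16344 tested genes with an exon length. The order held in each genotype at its ends, with Txn1 at 15107 per kilobase in Gsdme_KO and 12795 in WT, and Slc7a11 at 11.2 in Gsdme_KO and 5.07 in WT. Some neighbours in the order did not differ beyond the spread of the libraries, for example Gsta1 at 1687 per kilobase and Mgst1 at 1673 per kilobase. Ranks also depend on the exon lengths. For Gpx2 the length was 3222 bases, the whole gene from end to end, and for Txn1 it was 1051. Before division by length Gpx2 averaged 27429 normalized counts and Txn1 14662, so which of them comes first depends on the length used.

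**Figure D1:**
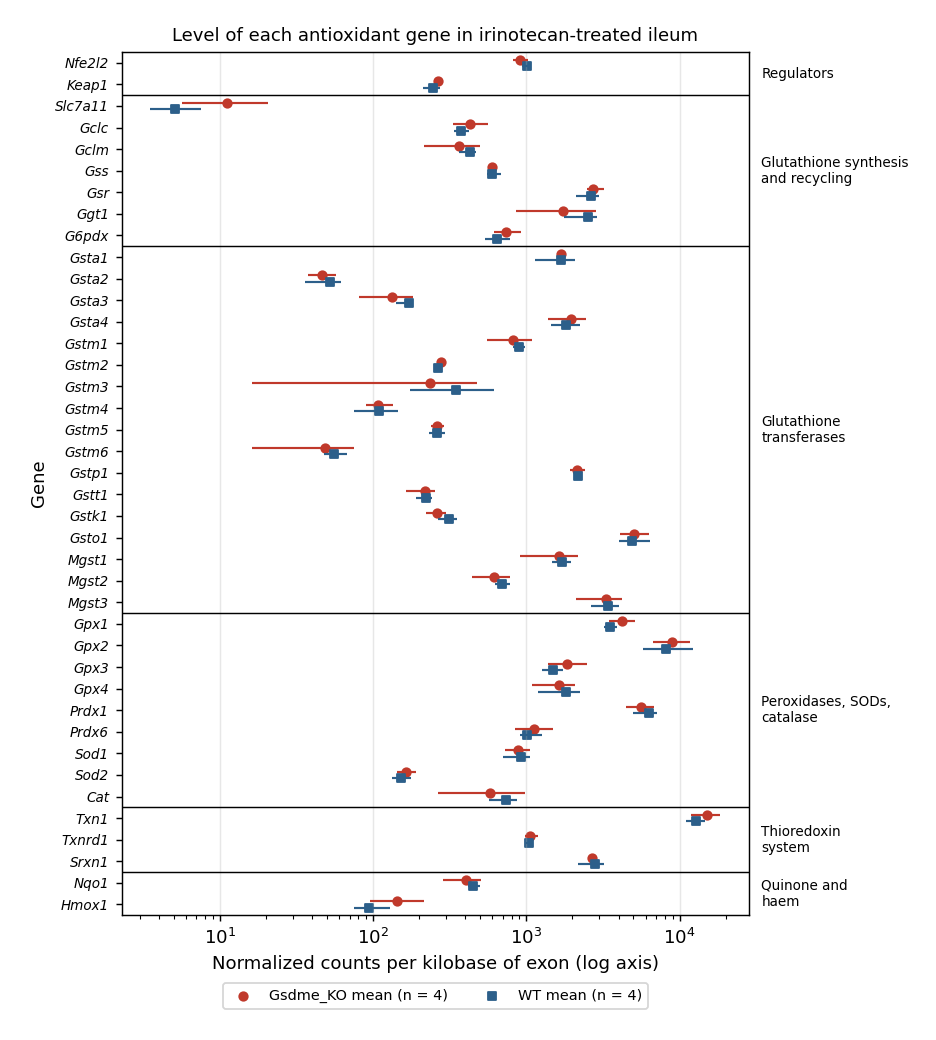
Levels of the 40 genes by role, as normalized counts per kilobase of exon on a log axis; points are means of the 4 Gsdme_KO libraries (red circles) and the 4 WT libraries (blue squares), and lines run from the lowest to the highest library. Txn1 and Gpx2 are at the top of the scale and Slc7a11 at the bottom, and the lines of the genotypes overlap for every gene.

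The regulators were close in level between genotypes. Nfe2l2 (ENSMUSG00000015839, chromosome 2, 75675513 to 75704641, minus strand, GRCm38) had 3115, 3164, 3909.6 and 3621 normalized counts in KO4, KO5, KO7 and KO8, against 4053, 3900.2, 3566 and 3865 in WT3, WT5, WT7 and WT8. The 2 lowest of the 8 were KO4 and KO5, and KO7 and KO8 lay inside the WT range. Its log2 fold change was -0.16 (SE 0.0952, limma adjusted p = 0.849), with a 95% interval of -0.38 to 0.056, and -0.030 without KO4 and KO5. Keap1 (ENSMUSG00000003308, chromosome 9, 21229730 to 21239361, minus strand), the adaptor that directs NRF2 to its ubiquitin ligase, had 1274, 1286, 1198 and 1232 in Gsdme_KO, against 1196, 1286, 1123 and 997 in WT. The WT libraries spread more widely than the Gsdme_KO libraries, and the ranges overlapped (log2 fold change 0.12, SE 0.0903, limma adjusted p = 0.849; 0.085 without KO4 and KO5). Of the exon sequence of Keap1, 7.78% of 50-base words also lie in the antisense gene Gm16754, which had 4.61 to 18.3 normalized counts in Gsdme_KO and 4.43 to 20.2 in WT.

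Promoters were read for the letters of the antioxidant response element core, TGACNNNGC, on either strand in the 250 bases before each RefSeq gene start (GRCm38.p6). RefSeq promoters were at hand for 35 of the 40 genes; Gclc, Gsr, Gsta4, Hmox1 and Prdx6 had no entry. The core was found for 10 of these 35 genes (28.6%), where 11.5% of 27025 genes in the table had it. It stood in 1 or more promoters of Nfe2l2, Gclm, Ggt1, G6pdx, Gsta3, Gstm5, Mgst1, Prdx1, Sod1 and Txnrd1. The longer form TGACTCAGC, whose first 7 letters are also the AP-1 site TGACTCA, was found for Prdx1 alone of the 35 genes and for 0.426% of all genes. A match describes letters in this window and no binding was measured. The promoters of 4 of the genes are shown because each of these genes was lowest in KO4, and they run 5′ to 3′ along the gene's strand with the core in capitals, which for Gclm and Prdx1 reads as the reverse complement.
Nfe2l2, chr2:75704664-75704913, minus strand: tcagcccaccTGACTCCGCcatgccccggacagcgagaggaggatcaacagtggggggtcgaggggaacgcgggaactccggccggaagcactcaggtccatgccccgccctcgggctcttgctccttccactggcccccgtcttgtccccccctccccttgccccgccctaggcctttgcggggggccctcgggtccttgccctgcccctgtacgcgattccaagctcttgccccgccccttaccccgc
Gclm, chr3:122245307-122245556, plus strand: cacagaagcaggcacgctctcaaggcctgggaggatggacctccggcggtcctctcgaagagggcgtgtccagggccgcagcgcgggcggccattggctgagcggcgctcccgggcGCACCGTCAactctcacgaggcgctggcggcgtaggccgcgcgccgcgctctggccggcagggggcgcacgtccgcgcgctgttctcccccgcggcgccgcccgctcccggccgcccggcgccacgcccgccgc
Gsta3, chr1:21240335-21240584, plus strand: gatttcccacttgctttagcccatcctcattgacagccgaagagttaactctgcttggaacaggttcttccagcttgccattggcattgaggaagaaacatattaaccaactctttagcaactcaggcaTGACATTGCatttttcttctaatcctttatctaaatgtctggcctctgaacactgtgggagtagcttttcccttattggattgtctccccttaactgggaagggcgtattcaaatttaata
Prdx1, chr4:116685349-116685598, plus strand: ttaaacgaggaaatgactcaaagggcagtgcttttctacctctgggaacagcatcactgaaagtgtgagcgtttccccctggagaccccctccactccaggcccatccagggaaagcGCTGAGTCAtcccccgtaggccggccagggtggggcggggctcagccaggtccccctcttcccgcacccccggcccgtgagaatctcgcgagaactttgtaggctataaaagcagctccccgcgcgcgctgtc
The core begins 240 bases before the start in Nfe2l2, 134 in Gclm, 121 in Gsta3 and 133 in Prdx1.

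Among genes of glutathione synthesis and recycling, the cystine importer gene Slc7a11 and the gamma-glutamyltransferase gene Ggt1 varied most, in opposite directions. Slc7a11 (ENSMUSG00000027737, chromosome 3, 49892526 to 50443614, minus strand) supplies cysteine for glutathione and had 288, 172, 77.97 and 84.0 normalized counts in KO4, KO5, KO7 and KO8, against 73.8, 54.8, 48.7 and 105 in WT3, WT5, WT7 and WT8. Its values in KO4 and KO5 were above those of all other libraries, while KO7 and KO8 lay inside the WT range. The log2 fold change was 0.98 (SE 0.436, limma adjusted p = 0.849; 95% interval -0.0079 to 1.97), and 0.26 without KO4 and KO5. Ggt1 (ENSMUSG00000006345, chromosome 10, 75561604 to 75586200, plus strand) encodes a surface enzyme that splits extracellular glutathione. It had 3468, 2901, 9756 and 7373 in Gsdme_KO, against 9917, 9335, 8929 and 6041 in WT. Its values in KO4 and KO5 were below those of all other libraries, and KO7 and KO8 were within the WT range (log2 fold change -0.70, SE 0.379, limma adjusted p = 0.849; 0.013 without KO4 and KO5). Gsr, which encodes glutathione reductase, had 6883, 8849.8, 7455 and 6993 in Gsdme_KO, against 7586, 8225, 7555 and 5842 in WT, with overlapping ranges (log2 fold change 0.051, SE 0.131; -0.0048 without KO4 and KO5).

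The other genes of this role differed by less than Slc7a11 and Ggt1. Gclc and Gclm, the catalytic and the modifier subunit of glutamate-cysteine ligase, the first and rate-limiting enzyme of glutathione synthesis, did not separate the genotypes. Gclc averaged 1605 ± 381 normalized counts in Gsdme_KO and 1414 ± 140.2 in WT, and Gclm averaged 2279 ± 767 in Gsdme_KO and 2682 ± 278 in WT (SD, n = 4 each). KO4 was the highest of the 8 for Gclc at 2102 and the lowest for Gclm at 1349. The lowest for Gclc was KO5 at 1244, and the highest for Gclm was KO7 at 3131. Gss, glutathione synthetase, averaged 3522 ± 184 in Gsdme_KO and 3507 ± 357 in WT, and was the steadiest gene of this role with a range of 0.30 on the log2 scale over the 8 libraries. G6pdx, the glucose-6-phosphate dehydrogenase that supplies NADPH, averaged 2269 ± 428 in Gsdme_KO and 1972 ± 325 in WT (log2 fold change 0.20, SE 0.156). Both genes share exon sequence with others: of the 50-base words of G6pdx, 10.6% lie antisense in Ikbkg and 6.46% in genes read on the same strand, and 10.3% of those of Gss lie antisense in other genes, Acss2 first among them.

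**Figure D2:**
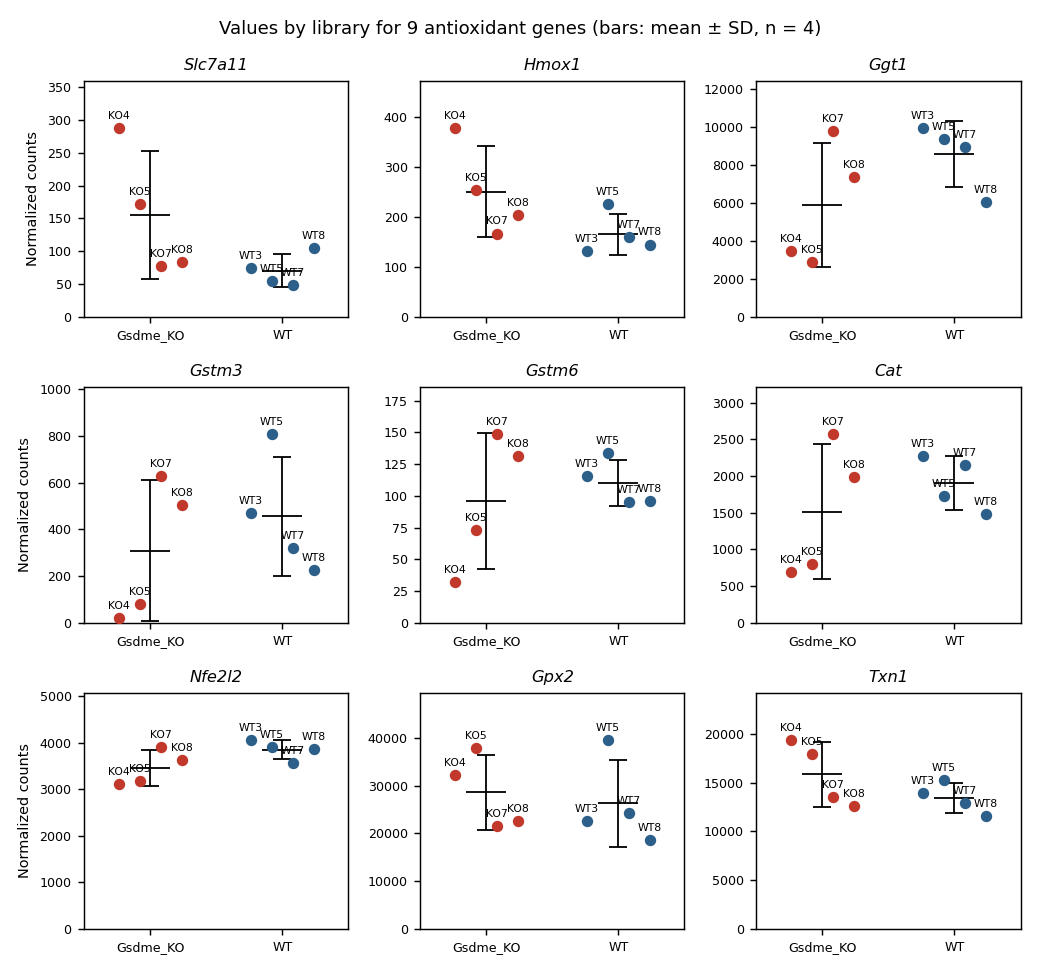
Normalized counts in every library for 9 of the genes, Gsdme_KO left and WT right, with the mean ± SD of 4 libraries as bars and each axis starting at 0. KO4 and KO5 are the 2 highest libraries for Slc7a11, Hmox1 and Txn1 and the 2 lowest for Ggt1, Gstm3, Gstm6, Cat and Nfe2l2, while for Gpx2 WT5 is highest.

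The 17 glutathione transferase genes, whose products join glutathione to electrophiles, had a higher mean log2 value in Gsdme_KO for 6 and a lower one for 11, with a median log2 fold change of -0.066. KO4 and KO5 held the 2 lowest of the 8 values in 7 of the 17. The mu-class gene Gstm3 (ENSMUSG00000004038, chromosome 3, 107963696 to 107969283, minus strand) spanned more than any other of the 40, a range of 5.19 on the log2 scale. It had 21.2, 81.9, 629 and 502 normalized counts in KO4, KO5, KO7 and KO8, against 469, 807, 319.7 and 228 in WT3, WT5, WT7 and WT8. Both KO4 and KO5 were far below the rest, and KO7 and KO8 were within the WT range. The log2 fold change was -1.39 (SE 1.00, limma adjusted p = 0.849; 95% interval -3.67 to 0.88), and 0.46 without KO4 and KO5. Its neighbour Gstm6 (chromosome 3, 107938847 to 107943749, minus strand) had 32.3, 72.8, 149 and 131 in Gsdme_KO, against 116, 133, 95.1 and 96.0 in WT. Here too KO4 and KO5 were the 2 lowest (log2 fold change -0.40, SE 0.437; 0.36 without KO4 and KO5).

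Genes of the same chromosome 3 cluster did not all share this. Gstm1 averaged 1212 ± 393 normalized counts in Gsdme_KO and 1317 ± 104 in WT (SD, n = 4 each), with KO4 and KO5 at 818 and 937 the 2 lowest and KO7 and KO8 at 1612 and 1481 the 2 highest of the 8. Gstm2, which lies between Gstm3 and Gstm1, was the steadiest of all 40 genes, with 467 ± 10.5 in Gsdme_KO and 447 ± 21.0 in WT and a range of 0.19 on the log2 scale. Gstm4 averaged 183 ± 33.9 in Gsdme_KO and 187 ± 55.5 in WT, and Gstm5, on the opposite strand, averaged 335 ± 32.2 in Gsdme_KO and 333 ± 33.7 in WT. The cluster runs from Gstm5 at 107895821 to Gstm4 at 108044894. Gstm7, counted below among the further pathway genes, lies between Gstm5 and Gstm6. It had 28.6 and 42.1 normalized counts in KO4 and KO5, the 2 lowest of the 8. KO7 and KO8, at 107 and 117, were the 2 highest, and WT libraries had 55.3 to 80.6. Its log2 fold change was -0.17 (SE 0.440, limma adjusted p = 0.947), and 0.66 without KO4 and KO5. Similar sequence limits the separate values of some. Of the 50-base words of Gstm3, 28.8% lie in other genes, as do 18.9% of those of Gstm1, 5.97% of those of Gstm6 and 5.65% of those of Gstm2. For Gstm5, 9.44% lie antisense in 4933431E20Rik and none in genes read on the same strand.

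The alpha-class genes also differed among themselves. Gsta3 (ENSMUSG00000025934, chromosome 1, 21240589 to 21265661, plus strand) had 348, 411, 796 and 756 normalized counts in KO4, KO5, KO7 and KO8, against 770.5, 611, 785 and 794 in WT3, WT5, WT7 and WT8. Levels in KO4 and KO5 were below all WT libraries (log2 fold change -0.44, SE 0.269, limma adjusted p = 0.849; 0.075 without KO4 and KO5). Gsta4, whose product acts on lipid peroxidation aldehydes, went the other way in these libraries, with 2892 in KO4 and 3081 in KO5 the 2 highest of the 8, and averaged 2472 ± 622 in Gsdme_KO and 2284 ± 414 in WT (SD, n = 4 each). Gsta1 averaged 1619 ± 68.9 in Gsdme_KO and 1606 ± 378 in WT, and Gsta2 averaged 54.4 ± 10.2 in Gsdme_KO and 61.2 ± 13.5 in WT. The 2 are uncertain as separate values: 90.5% of the 50-base words of Gsta1 and 49.8% of those of Gsta2 also occur in other genes, chiefly each other, Gsta13 (Gm3776 in GENCODE M21) and Gsta5 (Gm10639). Gsta13 had 473 to 559 normalized counts in Gsdme_KO and 387 to 691 in WT, and Gsta5 had 14.7 to 21.8 in Gsdme_KO and 6.64 to 20.7 in WT.

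The remaining transferases also overlapped between genotypes. The most abundant per kilobase, Gsto1 (ENSMUSG00000025068, chromosome 19, 47854970 to 47864790, plus strand), had 8215, 12842, 10171 and 9353 normalized counts in Gsdme_KO, against 10181, 12979.5, 8513 and 8165 in WT, with overlapping ranges (log2 fold change 0.032, SE 0.184; -0.0054 without KO4 and KO5). Mgst3, a membrane-bound member, had 2304, 3626, 4602 and 4069 in Gsdme_KO, against 4432, 4018, 3622 and 2910.2 in WT. KO4 alone was below the WT range and KO7 alone above it (log2 fold change -0.066, SE 0.219; 0.23 without KO4 and KO5). Gstk1, the kappa-class enzyme of mitochondria and peroxisomes, had 325, 349, 439.8 and 421 in Gsdme_KO, against 517, 514, 422 and 388 in WT. Its 2 lowest libraries were KO4 and KO5 (log2 fold change -0.26, SE 0.141, limma adjusted p = 0.849; -0.087 without them). Gstp1 averaged 3311 ± 336 in Gsdme_KO and 3380.2 ± 161 in WT, and Gstt1 averaged 332 ± 64.9 in Gsdme_KO and 336 ± 37.9 in WT (SD, n = 4 each). The membrane-bound Mgst1 averaged 3274 ± 1069.6 in Gsdme_KO and 3462 ± 453 in WT, and Mgst2 averaged 2289 ± 605 in Gsdme_KO and 2566 ± 279 in WT. None of these 4 separated the genotypes. For Gstp1, 33.7% of the 50-base words also lie in Gstp2, which had 169.6 to 268 normalized counts in Gsdme_KO and 194 to 292 in WT.

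**Figure D3:**
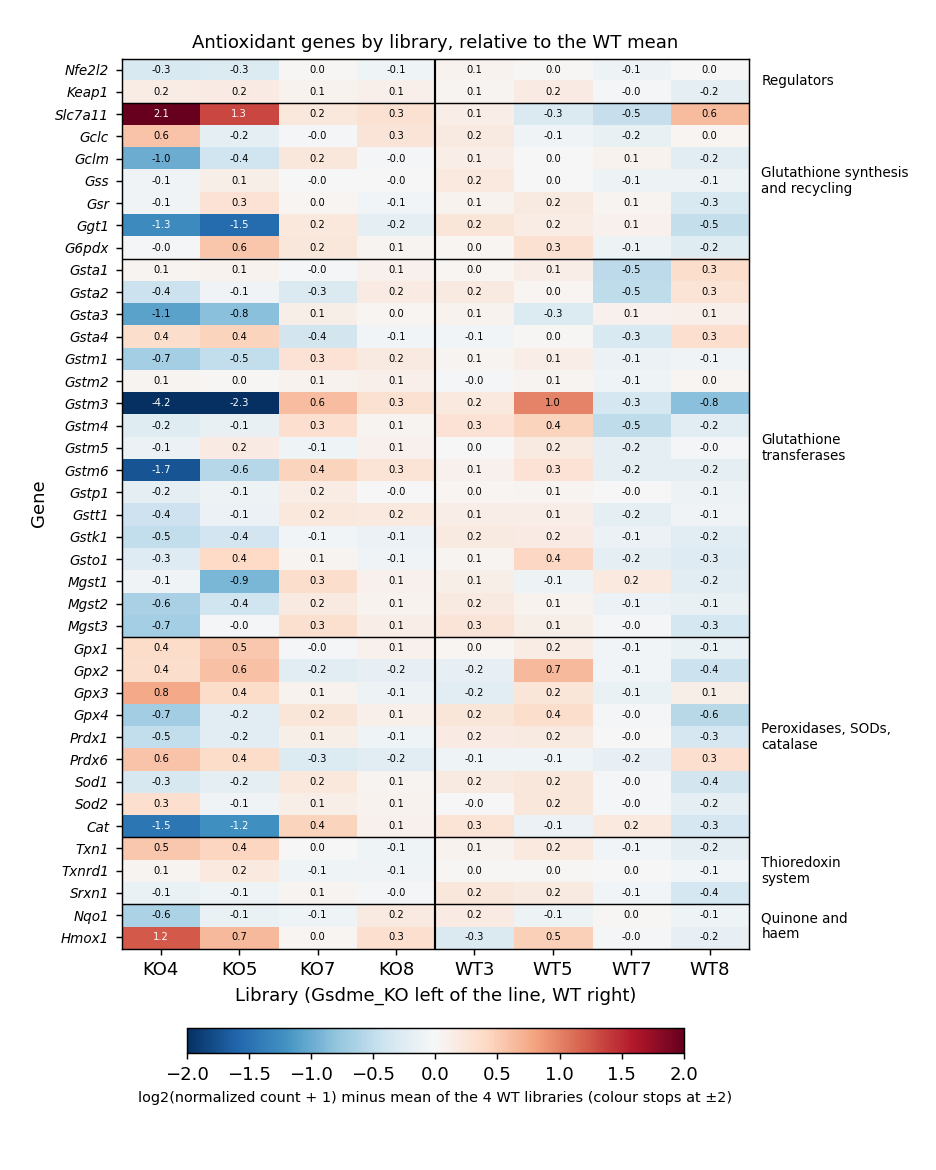
Every gene in every library as log2(normalized count + 1) minus the mean of the 4 WT libraries, with Gsdme_KO libraries left of the line, WT libraries right of it and genes grouped by role; red is above the WT mean and blue below. The columns KO4 and KO5 hold the strongest colours, led by Gstm3, Ggt1, Cat and Gstm6 in blue and Slc7a11 and Hmox1 in red, and KO7 and KO8 resemble the WT columns in depth of colour.

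Among peroxidases, superoxide dismutases and catalase, Gpx1 and Gpx3 were highest in KO4 and KO5 and catalase was lowest there. Gpx1 (ENSMUSG00000063856, chromosome 9, 108338903 to 108340343, plus strand), the cytosolic enzyme, had 6526, 7347, 4996 and 5349 normalized counts in KO4, KO5, KO7 and KO8, against 5187, 5634, 4879 and 4595 in WT3, WT5, WT7 and WT8. The values of KO4 and KO5 were above all others (log2 fold change 0.24, SE 0.135, limma adjusted p = 0.849; 0.031 without KO4 and KO5). Gpx3, the secreted plasma enzyme, had 4528, 3477, 2829 and 2513 in Gsdme_KO, against 2301, 3161, 2452 and 2907 in WT, again with KO4 and KO5 the 2 highest (log2 fold change 0.28, SE 0.187; -0.0092 without them). Gpx2 (ENSMUSG00000042808, chromosome 12, 76792333 to 76795554, minus strand), the gastrointestinal enzyme, had 32292, 37992, 21486 and 22562 in Gsdme_KO, against 22521, 39589, 24360.4 and 18627 in WT. Its highest library was a WT one, WT5, and the genotypes overlapped over nearly their whole range (log2 fold change 0.14, SE 0.271; -0.20 without KO4 and KO5). The processed copy Gpx2-ps1 holds 5.97% of its 50-base words.

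Cat (ENSMUSG00000027187, chromosome 2, 103453849 to 103485160, minus strand) encodes catalase, the peroxisomal enzyme that breaks down hydrogen peroxide. It had 688, 804, 2571 and 1989 normalized counts in KO4, KO5, KO7 and KO8, against 2276, 1729, 2149.6 and 1485 in WT3, WT5, WT7 and WT8. The values of KO4 and KO5 were the 2 lowest, KO7 was the highest of the 8, and KO8 was within the WT range. The log2 fold change was -0.54 (SE 0.412, limma adjusted p = 0.849; 95% interval -1.47 to 0.40), and 0.26 without KO4 and KO5. Prdx1 (ENSMUSG00000028691, chromosome 4, 116685544 to 116700822, plus strand), a peroxiredoxin that thioredoxin reduces, had 13531, 16364, 20714 and 17873 in Gsdme_KO, against 21344, 21604, 18861 and 15172 in WT. KO4 was the lowest of the 8 and WT8 the next lowest (log2 fold change -0.17, SE 0.168; 0.014 without KO4 and KO5), and 8.81% of its 50-base words occur in other genes.

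The other members of this role overlapped between genotypes. Gpx4, which reduces lipid hydroperoxides in membranes, averaged 2821 ± 758 normalized counts in Gsdme_KO and 3114 ± 799.8 in WT (SD, n = 4 each). Its spread came from KO4 at 1871 and WT8 at 2055, the 2 lowest of the 8. The processed copy Gpx4-ps2, which holds 34.7% of the 50-base words of Gpx4, had 285 to 560.4 in Gsdme_KO and 352 to 549 in WT. Prdx6 averaged 5405 ± 1563 in Gsdme_KO and 4883 ± 803 in WT, with KO4 at 7178 and KO5 at 6258 highest and KO7 and KO8 lowest of the 8. Sod1, the cytosolic superoxide dismutase, averaged 3491 ± 571 in Gsdme_KO and 3641 ± 639.7 in WT, and Sod2, the mitochondrial one, averaged 1642 ± 195 in Gsdme_KO and 1516 ± 179 in WT. Of the 50-base words of Sod2, 21.0% occur in other genes on the same strand. The 95% intervals of Sod1 and Sod2 lay within 1.5-fold.

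In the thioredoxin system the abundant substrate of thioredoxin reductase and the reductase itself were highest in KO4 and KO5. Txn1 (ENSMUSG00000028367, chromosome 4, 57943373 to 57956411, minus strand) had 19398, 18011, 13521 and 12580.4 normalized counts in KO4, KO5, KO7 and KO8, against 13978, 15301, 12885 and 11624 in WT3, WT5, WT7 and WT8. The values of KO4 and KO5 exceeded those of all other libraries, and KO7 and KO8 were within the WT range (log2 fold change 0.22, SE 0.165, limma adjusted p = 0.849; -0.037 without KO4 and KO5). Txnrd1, thioredoxin reductase 1, had 7689 in KO4 and 8499 in KO5, the 2 highest of the 8, and averaged 7533 ± 729 in Gsdme_KO and 7389 ± 218 in WT (SD, n = 4 each; log2 fold change 0.023, SE 0.0906). Srxn1, sulfiredoxin, which repairs over-oxidised peroxiredoxins, had 7139, 7341, 8168 and 7604 in Gsdme_KO, against 9109, 8890.0, 7541 and 6138 in WT. All Gsdme_KO libraries lay inside the WT range (log2 fold change -0.051, SE 0.133; 0.010 without KO4 and KO5).

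The NRF2 target genes of quinone and haem detoxification parted in KO4. Nqo1 (ENSMUSG00000003849, chromosome 8, 107388225 to 107403206, minus strand), the quinone reductase often read as a marker of NRF2 activity, had 446, 632, 657 and 783 normalized counts in KO4, KO5, KO7 and KO8, against 776, 645, 708 and 651 in WT3, WT5, WT7 and WT8. KO4 was the lowest and KO8 the highest of the 8 (log2 fold change -0.17, SE 0.163, limma adjusted p = 0.858; 0.049 without KO4 and KO5). Hmox1 (ENSMUSG00000005413, chromosome 8, 75093621 to 75100589, plus strand), heme oxygenase 1, had 378, 255, 167 and 204 in Gsdme_KO, against 132, 225, 159 and 145 in WT. Here KO4 and KO5 exceeded all other libraries, and KO7 and KO8 were within the WT range. The log2 fold change was 0.56 (SE 0.266, limma adjusted p = 0.849; 95% interval -0.041 to 1.17), and 0.19 without KO4 and KO5.

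Over the 40 genes, KO4 and KO5 held the 2 lowest of the 8 values in 12 and the 2 highest in 8. Over all tested genes the shares were 13.5% for the 2 lowest and 14.1% for the 2 highest. For KO7 and KO8 the counts were 2 lowest and 3 highest, against 3.46% and 3.12% of all tested genes. The 12 were Nfe2l2, Gclm, Ggt1, Gsta3, Gstm1, Gstm3, Gstm6, Gstp1, Gstk1, Mgst2, Cat and Nqo1, and the 8 were Slc7a11, Gsta4, Gpx1, Gpx3, Prdx6, Txn1, Txnrd1 and Hmox1. Values outside the WT range in both KO4 and KO5 were seen in 21 of the 40 genes (35.7% of all tested genes), and values inside it in both KO7 and KO8 in 24 (50.5% of all tested genes). These counts describe the libraries and were not tested. Spread on the log2 scale was larger in Gsdme_KO than in WT for 28 of the 40 genes, as for 59.5% of all tested genes. The median SD of the 40 was 0.30 in Gsdme_KO and 0.21 in WT. Over all tested genes it was 0.25 in Gsdme_KO and 0.21 in WT. With KO4 and KO5 left out, 26 of the 40 fold changes took the opposite sign, 28 were above 0, and the median size was 0.091 on the log2 scale in place of 0.15. For all genes tested in both fits the median size was 0.11 in place of 0.13, and 36.0% took the opposite sign. Of all 16212 genes tested without KO4 and KO5, 8425 were above 0. Log2 fold changes without KO4 and KO5 ran from -0.24 for Prdx6 to 0.46 for Gstm3. In that fit 0 of the 40 had an unadjusted p under 0.05 by limma (2.74% of all genes). No member was called there either, where 0% of tested genes were called higher and 0.00617% lower. Leaving out KO7 alone instead gave 7 of the 40 at an unadjusted p under 0.05 (11.6% of all tested genes) and 0 past adjustment: Nfe2l2, Slc7a11, Ggt1, Gsta3, Gpx1, Cat and Hmox1.

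**Figure D4:**
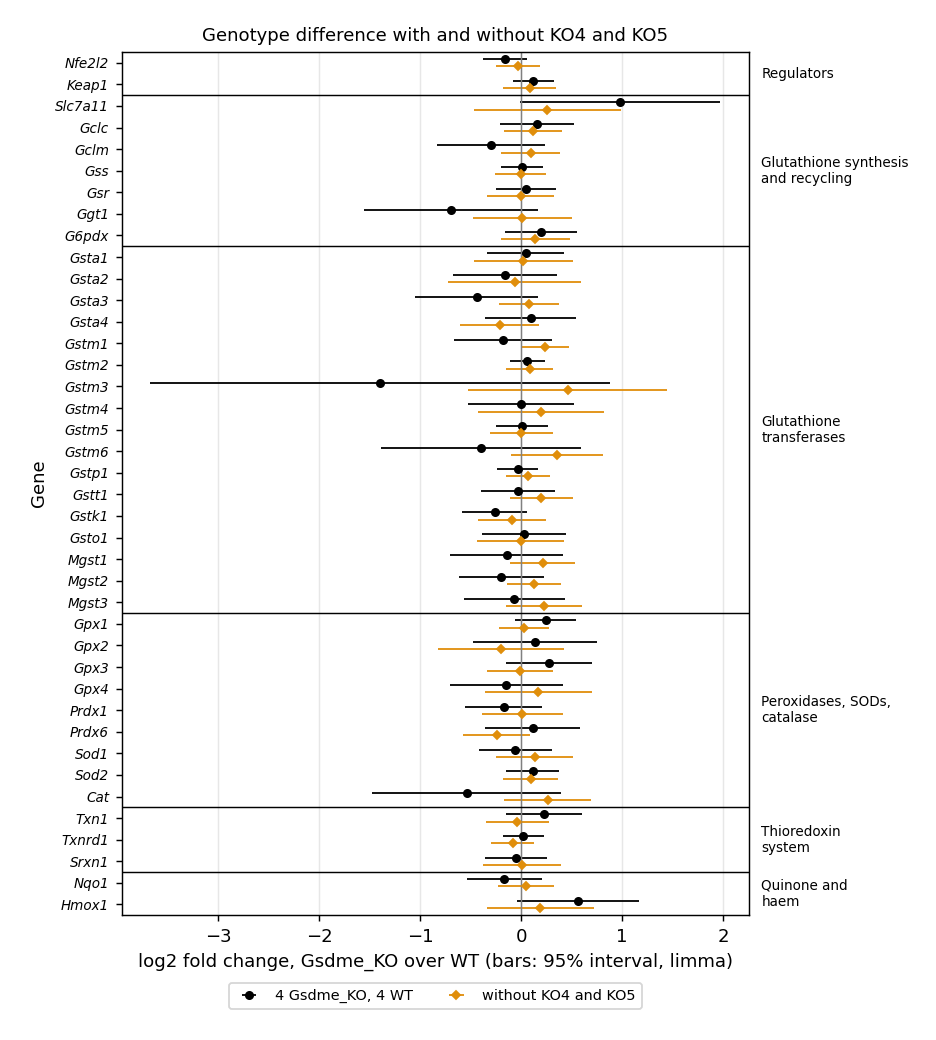
Log2 fold change of each gene, Gsdme_KO over WT, with its 95% interval by limma: black circles for 4 Gsdme_KO and 4 WT libraries, orange diamonds without KO4 and KO5. The black points run from -1.39 (Gstm3) to 0.98 (Slc7a11), the orange points from -0.24 to 0.46, and every interval that includes all libraries crosses 0.

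Markers of other cells were measured beside these values. The 13 markers of macrophages, monocytes and neutrophils were all higher in mean log2 value in Gsdme_KO, with a sum of 16486 (KO4), 12325 (KO5), 7694 (KO7) and 8650.4 (KO8) normalized counts in Gsdme_KO, against 8215 to 11269 in WT, and none was at 0. The 11 T cell markers, all higher in the same way, summed to 3522 (KO4), 2157 (KO5), 1223 (KO7) and 1271 (KO8) in Gsdme_KO, against 675 to 1227 in WT. Of the 10 crypt and Paneth cell markers 5 were higher and 5 lower in mean log2 value, with sums of 102091 to 230633 in Gsdme_KO and 102974 to 179270 in WT. The 8 goblet cell markers summed to 185785 to 357110 in Gsdme_KO and 264533 to 377504 in WT. The sums for 10 fibroblast and smooth muscle markers were 62326 to 88709 in Gsdme_KO and 63524 to 87629 in WT. Those for 5 endothelial markers were 1974 to 3042 in Gsdme_KO and 1843 to 2360 in WT, and those for 5 erythroid markers were 69.1 to 128 in Gsdme_KO and 108 to 318 in WT, with Hba-a2 and Hbb-bt at 0 in 1 or more libraries. In KO4 and KO5 the enterocyte sums were low, as were 12 of the 40 genes, Ggt1, Cat, Gstm3 and Gsta3 among them. The B cell, T cell and myeloid sums were high there, as were 8 of the 40, Hmox1 and Slc7a11 among them. Among the WT libraries, WT8 had the lowest enterocyte sum and the lowest Ggt1, Cat and Gstm3, but the highest Gsta3. It also had the highest myeloid sum and the lowest T cell sum of the WT libraries. Of the 8 genes, WT8 was the highest WT library for Slc7a11, Gsta4 and Prdx6. For Gpx1, Txn1 and Txnrd1 it was the lowest, with Gpx3 and Hmox1 in between. The part of these cell types in the values was not tested.

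Of 88 further genes of the same pathways, 84 passed the filter and 0 were called by limma, edgeR or DESeq2 in either direction. Those below the filter were Aldh3a1, Gsto2, Gpx5 and Gpx6. Mean log2 values were higher in Gsdme_KO for 37 and lower for 47, with a median log2 fold change of -0.040. At an unadjusted p under 0.05, limma listed 1 higher gene, Sod3, and 1 lower gene, Nqo2, against the 4.38% of all tested genes. Without KO4 and KO5 it listed 4 of the 84 at that threshold, where 2.74% of all tested genes passed. These were Oplah, Gstm7 and Gstz1, higher in Gsdme_KO, and Sesn2, lower, and none passed adjustment. Nqo2, a quinone reductase related to NQO1, had 413, 536, 582 and 544 normalized counts in KO4, KO5, KO7 and KO8, against 665, 613, 676 and 646 in WT3, WT5, WT7 and WT8. It was the sole gene of the 84 whose genotypes did not overlap (1.19% of all tested genes on the lower side), and its log2 fold change was -0.34 (SE 0.115, limma adjusted p = 0.849) and -0.21 without KO4 and KO5. Sod3, the extracellular superoxide dismutase, had 825, 809.5, 514 and 487 in Gsdme_KO, against 377, 551, 469 and 472 in WT. The 2 highest were KO4 and KO5 (log2 fold change 0.47, SE 0.205, limma adjusted p = 0.849; 0.11 without KO4 and KO5).

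The next genes by unadjusted p were Sesn1, a p53-induced sestrin, with 833 ± 325 normalized counts in Gsdme_KO and 1111 ± 119 in WT (SD, n = 4 each), the aldehyde oxidase gene Aox1 with 60.4 ± 7.27 in Gsdme_KO and 46.4 ± 11.0 in WT, the aldo-keto reductase gene Akr1c13 with 1675 ± 589 in Gsdme_KO and 2196 ± 291 in WT, and the biliverdin reductase gene Blvrb with 282 ± 51.3 in Gsdme_KO and 230.3 ± 26.7 in WT. Each of the 4 overlapped between genotypes. Without KO4 and KO5 the log2 fold changes were -0.040 for Sesn1, 0.52 for Aox1, -0.0099 for Akr1c13 and 0.12 for Blvrb. By role, 7 of 11 partners and regulators of NRF2 had a higher mean log2 value in Gsdme_KO, as did 2 of 5 genes of NADPH supply, 6 of 16 of quinone, carbonyl and haem detoxification, 8 of 20 of glutathione handling, 3 of 8 other transferases and 11 of 24 other peroxidases, thioredoxins and repair enzymes.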

How the data were processed

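Bulk poly(A) RNA-seq of ileum from 8 irinotecan-treated mice was analysed, 4 Gsdme_KO and 4 WT, at 15617407 to 23437343 reads in genes per library. Libraries were strand-specific, per the labels' protocols. Alignment and counting tools in the submitters' processing notes are HISAT2, SAMtools, Subread and featureCounts, with DESeq2 and GRCm38. Their versions, the annotation release and whether counting used strand are not given here. Deposited by the authors was a single table of normalized signal, in which gene counts are divided by 1 size factor per library. Dividing by 1 step per library gave whole reads for 100% of values within 0.01 reads. Column headers number libraries differently from the labels, so columns were tied to a genotype only. Nothing says whether the mice were from separate litters or cages. No 2 libraries agreed within sampling noise (lowest chi-square per degree of freedom 11.5).

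The main test was limma 3.58.1 (R 4.3.3) with an intensity trend on log2(normalized count + 1), for 16352 genes with a mean of at least 10, adjusted by Benjamini-Hochberg over all of them and called under 0.05. Fold changes on this scale understate those of low genes. On simulated counts, limma called 46% of genes changed 2-fold and 83.7% of genes changed 4-fold. The simulation did not copy the shared departure of KO4 and KO5. Gsdme was compared by an exact permutation test over 70 assignments. Exon lengths, positions and shared 50-base words are from GENCODE M21, promoters from RefSeq (GRCm38.p6). Alternatives were pseudocounts of 0.5 and 5, no filter, a mean of at least 50, TMM factors, edgeR 4.0.16 and DESeq2 1.42.0 on recovered reads, each library left out, and KO4 and KO5 left out together. For Gsdme the last was added after seeing the data. The genes, lists, tests and named genes were chosen with earlier results of these data known. By rule, values in every library are given for genes called or not overlapping, the 10 of smallest p, the 2 of highest level per kilobase in each role of 3 or more (all in smaller roles) and the 5 of widest range; other values given were chosen after seeing them. Of the further genes, the rule names those called or not overlapping and the 6 of smallest p, and others named were chosen after seeing them.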

Additional observations from a re-analysis of the deposited data

Results flagged for a closer look

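In 2 of the 80 groups of 4 libraries examined, 1 library stood far from the other 3, where chance alone sets about 1 in 20 groups apart. Gsta3 had 611 normalized counts in WT5, the lowest of the WT libraries, with a gap to the next library of 0.873 of the WT range. Prdx6 had 6077 in WT8, the highest of the WT libraries, with a gap of 0.872 of the WT range.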

How the results depend on the processing

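No gene of the 40 or of the 84 further tested genes was called under any alternative, and under both pseudocounts, no filter, a mean of at least 50 and TMM factors all 40 kept the sign of their log2 fold change. Gstm4 turned to -0.025 with edgeR and to -0.030 with DESeq2. Over all genes DESeq2 called 8 higher and 1 lower in place of 1 and 0, and without KO4 and KO5 limma called 0 higher and 1 lower. Leaving out 1 library at a time, limma called 0 to 1 genes higher and 0 lower in all. Of the 40, those at an unadjusted p under 0.05 numbered 1 with no filter, 1 with edgeR, 2 with DESeq2 and 0 to 7 with 1 library left out. Without KO4 and KO5 these took the opposite sign, with log2 fold changes of: Gclm 0.098, Gss -0.0030, Gsr -0.0048, Ggt1 0.013, Gsta3 0.075, Gsta4 -0.21, Gstm1 0.23, Gstm3 0.46, Gstm6 0.36, Gstp1 0.072, Gstt1 0.20, Gsto1 -0.0054, Mgst1 0.21, Mgst2 0.13, Mgst3 0.23, Gpx2 -0.20, Gpx3 -0.0092, Gpx4 0.17, Prdx1 0.014, Prdx6 -0.24, Sod1 0.13, Cat 0.26, Txn1 -0.037, Txnrd1 -0.084, Srxn1 0.010, Nqo1 0.049. With 1 library left out at a time, the log2 fold change crossed 0 for: Gss -0.025 to 0.077, Gsr -0.052 to 0.11, Gsta1 -0.13 to 0.16, Gsta4 -0.022 to 0.25, Gstm4 -0.17 to 0.15, Gstm5 -0.048 to 0.070, Gstm6 -0.68 to 0.046, Gstp1 -0.097 to 0.015, Gstt1 -0.11 to 0.097, Gsto1 -0.088 to 0.17, Mgst1 -0.30 to 0.12, Mgst3 -0.19 to 0.14, Gpx2 -0.012 to 0.36, Gpx4 -0.33 to 0.038, Prdx6 -0.037 to 0.24, Sod1 -0.18 to 0.030, Txnrd1 -0.036 to 0.062, Srxn1 -0.17 to 0.022. The Gsdme difference was -3.32 on the log2 scale and -2.37 without KO4 and KO5, where the exact permutation p was 0.0667, the smallest that 2 against 4 libraries allow. The cause of these changes was not tested. No paired analysis was possible because the columns carry none of the labels' replicate numbers. The lowest value of the 40 genes in any library was 21.2 normalized counts, for Gstm3 in KO4.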

Other observations

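The genes in these 2 paragraphs were picked with their values in view and were not tested. The subunits of glutamate-cysteine ligase differed in ratio between libraries. Gclc per kilobase over Gclm per kilobase was 2.60, 1.03, 0.737 and 1.08 in KO4, KO5, KO7 and KO8, against 0.906, 0.839, 0.752 and 1.05 in WT3, WT5, WT7 and WT8. KO4 had the highest ratio, and the other libraries lay between 0.737 and 1.08.

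Some further pathway genes of high level were low in KO4 and KO5. Selenop, the selenium carrier, had 16384 and 19225 normalized counts in KO4 and KO5 and 68788 and 43507 in KO7 and KO8, against 40880.0 to 64284 in WT. Dpep1, a surface dipeptidase that acts after gamma-glutamyltransferase in glutathione breakdown, had 2234, 5466, 16036 and 12558 in KO4, KO5, KO7 and KO8, against 8621 to 15877 in WT. Aldh1a1, a retinal dehydrogenase, had 3884, 3005, 12928 and 10704 in KO4, KO5, KO7 and KO8, against 8444 to 14204 in WT.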
